A study of Homo sapiens with 6 samples.

Results

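The SRSF and HNRNP genes code for the main families of general splicing regulators, and 39 protein-coding genes whose symbols begin with SRSF or HNRNP were taken from the 58735 genes of the count table, of which 19951 are protein-coding. There were 12 SRSF and 27 HNRNP genes. RNA was sequenced from NCI-N87, an established human gastric cancer line, in 3 libraries of cells given the PLVX-IRES-Puro-EGLN3 vector and 3 libraries of cells given the same PLVX-IRES-Puro vector without an insert. EGLN3, also called PHD3, is an oxygen-dependent prolyl hydroxylase that acts on the hypoxia-inducible factors (HIF). The labels give all 6 libraries 7 days of puromycin, and 1 day with the vector before it, except EGLN3 vector library 3, whose label gives 5 days. The labels do not say whether the replicates were separate cultures, so p-values measure no more than how these libraries vary, possibly for technical reasons. They say nothing of the promoter in the vector or of clones.

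SR proteins, the products of most SRSF genes, carry RNA recognition motifs and a tail rich in arginine and serine. They bind exonic enhancers in pre-mRNA and help the spliceosome to define exons. The hnRNP proteins are abundant nuclear RNA-binding proteins of several unrelated types, and many of them oppose SR proteins at splice sites or carry, stabilise or degrade mRNA. Both families regulate their own mRNAs, and many SRSF genes do so through alternative exons that send the transcript to nonsense-mediated decay. The deposited values are 1 count per gene, so changes between isoforms of these genes were not measured here.

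SRSF9 and HNRNPA0 are the genes the results below turn on. SRSF9 (ENSG00000111786), the SR protein once named SRp30c and a close relative of SRSF1, spans chr12:120461668-120469793 on the minus strand of GRCh38 and has 6 transcripts in GENCODE 29. HNRNPA0 (ENSG00000177733), an hnRNP of the A/B type that binds AU-rich elements in mRNA, spans chr5:137745651-137754376 on the minus strand and has 1 transcript with 1 exon. The 250 bases before the start of each gene in RefSeq (GRCh38.p14) are shown. Both genes were called lower with the EGLN3 vector in the corrected fit described further on. HNRNPD and SRSF4 were also called lower there, and their promoters are not shown. HIF, the best known substrate of EGLN3, binds a short core motif. The stretches lie at chr12:120469749-120469998 and chr5:137754364-137754613, both on the minus strand. RefSeq places both starts inside the GENCODE spans given above, so part of each stretch lies within the gene as counted. The stretches are given 5′ to 3′ with matches to the HIF core, ACGTG or GCGTG on either strand, in capitals.
SRSF9: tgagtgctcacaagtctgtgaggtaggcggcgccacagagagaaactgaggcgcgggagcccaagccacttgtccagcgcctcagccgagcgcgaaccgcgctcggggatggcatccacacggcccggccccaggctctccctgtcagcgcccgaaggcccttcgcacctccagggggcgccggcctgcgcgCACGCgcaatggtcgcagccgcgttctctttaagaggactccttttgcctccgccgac
HNRNPA0: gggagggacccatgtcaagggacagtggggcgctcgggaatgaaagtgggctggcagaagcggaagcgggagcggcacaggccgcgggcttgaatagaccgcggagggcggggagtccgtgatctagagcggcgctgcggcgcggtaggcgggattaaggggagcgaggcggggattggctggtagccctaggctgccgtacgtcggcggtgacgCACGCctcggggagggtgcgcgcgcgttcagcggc
Each stretch held 1 match, GCGTG read on the other strand as CACGC, with its first base 58 bases before the start in SRSF9 and 35 bases before it in HNRNPA0, and no ACGTG. GC content was 68.4% in the SRSF9 stretch and 70.4% in the HNRNPA0 stretch. Of the 30 tested SRSF and HNRNP genes in the RefSeq table, 25 (83.3%) had either core in at least 1 promoter, against 64.5% of 10091 other tested protein-coding genes. A match to 5 letters is a description of the sequence and not a binding site. Besides, the HNRNPA0 stretch held 1 CCAAT box (CCAAT) and 1 GC box (GGGCGG), which SRSF9 lacked, and neither held TATAAA, all searched on both strands. CCAAT was present for 60.0% of those 30 genes and 41.2% of the others, and GGGCGG for 66.7% and 74.7%. TATAAA was present for 20.0% of the 30 genes and 7.97% of the others.

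Library totals ran from 15157265 to 16531328 counts in EGLN3 vector libraries and from 15948514 to 16767383 in empty vector libraries. EGLN3 itself had 7298, 27674 and 27494 counts in the EGLN3 vector libraries, against 10, 11 and 9 in the empty vector libraries, and every library fitted its label in this respect. Of 8 markers of gastric epithelium, 6 passed the filter on low counts given below, as did 2 of 5 for leukocytes. For fibroblasts 1 of 5 passed, and for endothelium 1 of 3. The gastric markers summed to 6558 to 12134 FPKM in EGLN3 vector libraries and 7617 to 10283 FPKM in empty vector libraries. Markers of leukocytes summed to at most 3.75 FPKM in any library, those of fibroblasts to at most 0.528 and those of endothelium to at most 0.119. The libraries varied along 1 strong axis that did not follow the vector. The first principal component of log2 CPM (counts relative to the library total, scaled by the trimmed mean method TMM), taken over the tested genes outside the 2 families, held 70.0% of the variance. Its scores were 59.4, -23.3 and -45.9 in EGLN3 vector libraries 1 to 3, and -36.2, 11.5 and 34.4 in empty vector libraries 1 to 3. The mitochondrial share of counts was 6.99%, 5.71% and 5.57% in EGLN3 vector libraries and 5.25%, 5.35% and 6.48% in empty vector libraries, and its part in the results below was not tested.

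Together the families were a small share of the library totals, taken here without TMM scaling. SRSF genes took 0.181%, 0.192% and 0.190% in EGLN3 vector libraries 1 to 3 and 0.187%, 0.187% and 0.188% in empty vector libraries 1 to 3. HNRNP genes took 0.755%, 0.806% and 0.787% in EGLN3 vector libraries and 0.783%, 0.792% and 0.799% in empty vector libraries. Summed FPKM ranked the libraries otherwise. It ran from 346 to 409 over SRSF genes and from 1214 to 1420 over HNRNP genes, lowest in EGLN3 vector library 3 and highest in EGLN3 vector library 1. A filter on low counts left 33 of the 39 genes for testing, 11 SRSF and 22 HNRNP, among 15726 genes tested. HNRNPCL1, HNRNPCL2, HNRNPCL3, HNRNPCL4 and HNRNPUL2-BSCL2 had 0 counts in every library. SRSF12 had 0, 1 and 3 counts in EGLN3 vector libraries and 3, 4 and 0 in empty vector libraries. The tested row HNRNPA1P48 is named as a pseudogene but listed as protein-coding, and it and HNRNPA1L2 resemble HNRNPA1 closely, so their reads are uncertain.

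Per length, the highest levels of the 2 families were those of HNRNP genes. HNRNPA1, a splicing repressor that shuttles between nucleus and cytoplasm, led with 204 ± 25.3 FPKM in EGLN3 vector libraries and 207 ± 22.3 FPKM in empty vector libraries (SD, n = 3 each, as in the rest of the paragraph). HNRNPAB followed with 154 ± 30.6 FPKM in EGLN3 vector libraries and 168 ± 20.4 in empty vector libraries. Below it stood HNRNPK, a binder of C-rich RNA and DNA, with 129.8 ± 8.33 FPKM in EGLN3 vector libraries and 129.5 ± 1.03 FPKM in empty vector libraries. HNRNPA2B1 had 128 ± 11.2 FPKM with the EGLN3 vector and 126 ± 8.88 FPKM with the empty vector. HNRNPK and HNRNPA2B1 did not differ beyond their spread, and the ranges of HNRNPA1 and HNRNPAB overlapped. By the mean over all 6 libraries the lowest tested HNRNP genes were HNRNPA1L2 and HNRNPUL2. HNRNPA1L2 had 4.94 ± 0.869 FPKM in EGLN3 vector libraries and 5.06 ± 1.28 in empty vector libraries. HNRNPUL2 had 7.01 ± 1.31 FPKM in EGLN3 vector libraries and 6.64 ± 1.22 in empty vector libraries. It shares 14755 bases of its span with HNRNPUL2-BSCL2 on the same strand. The part that shared bases play in the counts of these 2 rows was not tested.

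Among SRSF genes the highest level was that of SRSF2, the speckle protein SC35, with 66.3 ± 19.5 FPKM in EGLN3 vector libraries and 57.4 ± 12.8 FPKM in empty vector libraries (SD, n = 3 each, here and below). SRSF7, which also takes part in mRNA export, had 48.1 ± 6.82 FPKM in EGLN3 vector and 49.7 ± 4.28 FPKM in empty vector libraries. SRSF5 had 46.4 ± 1.75 FPKM with the EGLN3 vector and 47.6 ± 1.98 FPKM with the empty vector. SRSF6 had 43.8 ± 1.08 FPKM with the EGLN3 vector and 43.6 ± 0.632 FPKM with the empty vector. The libraries of SRSF2 and SRSF7 overlapped those of the other genes here, while every SRSF5 library was above every SRSF6 library. SRSF9 had 33.9 ± 6.69 FPKM in EGLN3 vector libraries, rank 6 of the SRSF genes, and 46.7 ± 3.96 FPKM in empty vector libraries, rank 4, where it did not differ from its neighbours SRSF5 and SRSF6 beyond the spread. SRSF4, with 13.2 ± 1.34 FPKM in EGLN3 vector and 14.5 ± 0.0929 in empty vector libraries, and SRSF10, with 9.38 ± 0.506 FPKM in EGLN3 vector and 9.14 ± 0.595 in empty vector libraries, were the lowest tested.

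**Figure D1:**
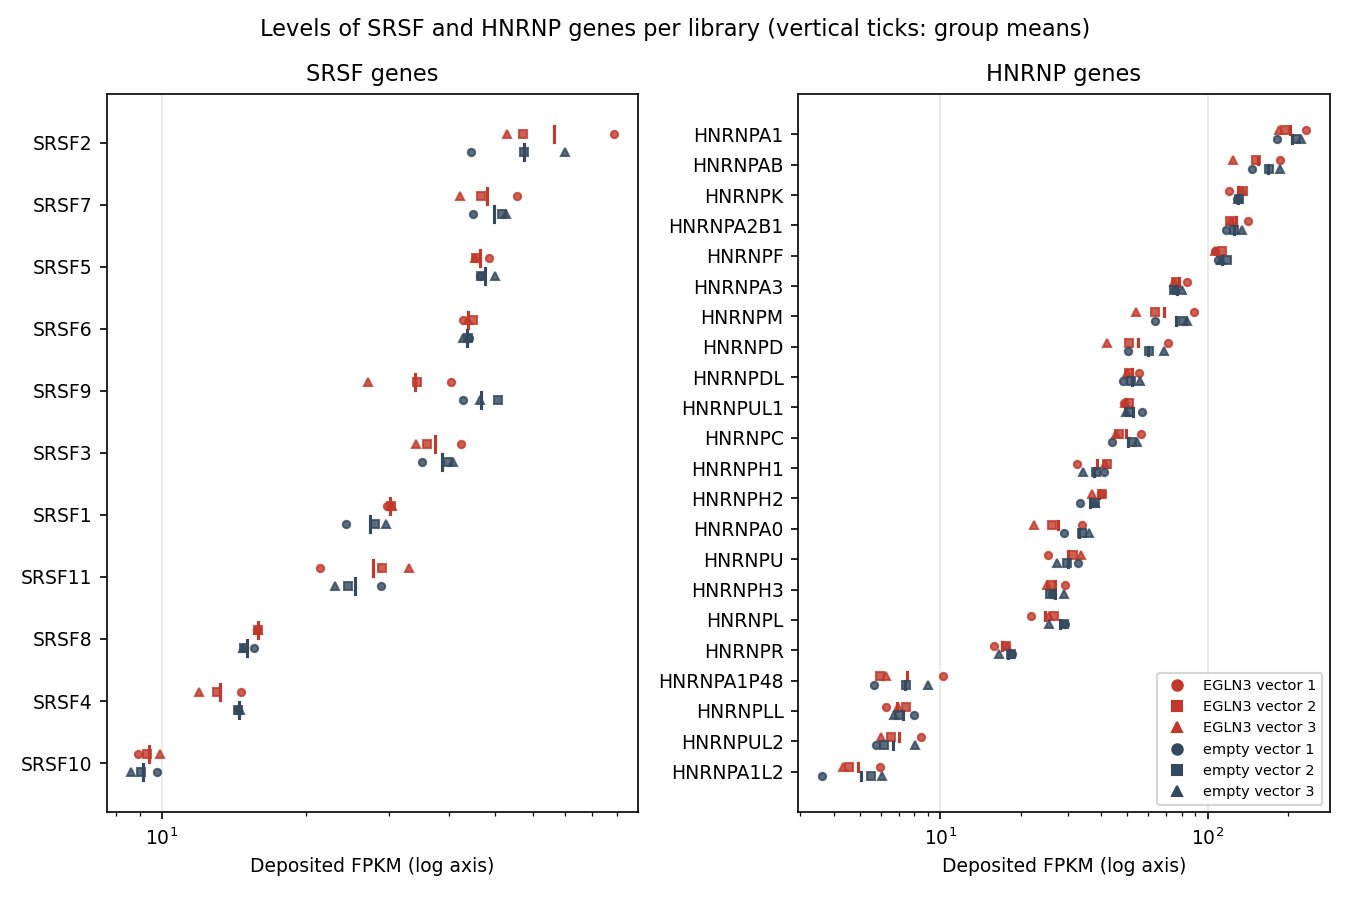
Deposited FPKM of the 33 tested genes on a log axis, SRSF genes in the left panel and HNRNP genes in the right, each point a library (circle, square and triangle for replicates 1 to 3, EGLN3 vector above empty vector) and each vertical tick a group mean. Most gene pairs of groups lie on top of each other, while the EGLN3 vector points of SRSF9 all lie left of its empty vector points.

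SRSF9 was the member with the lowest ratio between the groups. It had 152, 129.6 and 103 CPM in EGLN3 vector libraries 1 to 3 (2303, 2186 and 1649 counts), against 163, 192 and 176 CPM in empty vector libraries 1 to 3 (2803, 3002 and 2802 counts). Every EGLN3 vector library was below every empty vector library, and library 3, the one labelled 5 days, was the lowest. The means were 128 ± 24.5 CPM with the EGLN3 vector and 177 ± 14.3 CPM with the empty vector (SD, n = 3 each), a ratio of 0.725. In the fit without covariate the log2 fold change was -0.46 (SE 0.17), with an edgeR quasi-likelihood p of 0.033 and an adjusted p of 1.00 over 15726 genes. The exact two-sided permutation p was 0.1, the smallest that 3 against 3 libraries allow. In bulk RNA, fewer cells with a transcript and less of it per cell cannot be told apart.

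The exons of SRSF9 overlap those of GATC, a gene of mitochondrial translation on the opposite strand, over 1729 of 3744 exonic bases (46.2%), and the sources used here do not say whether the counting used strand. GATC had 378, 366 and 388 counts in EGLN3 vector libraries and 366, 331 and 379 in empty vector libraries, with a log2 fold change of 0.10 (SE 0.13). The part that shared bases play in the SRSF9 counts was not tested.

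HNRNPA0 was lower in 2 of the 3 EGLN3 vector libraries than in any empty vector library. It had 298, 229 and 198 CPM in EGLN3 vector libraries 1 to 3 (4516, 3870 and 3172 counts), against 259, 299 and 317 CPM in empty vector libraries 1 to 3 (4446, 4683 and 5045 counts). EGLN3 vector library 1, at the far end of the first component, lay inside the empty vector range, so the groups overlapped. The means were 242 ± 51.0 CPM with the EGLN3 vector and 291 ± 29.7 CPM with the empty vector (SD, n = 3 each). The log2 fold change was -0.27 (SE 0.19), with an edgeR p of 0.193 and an adjusted p of 1.00, and the exact permutation p was 0.2. Without EGLN3 vector library 1 the log2 fold change was -0.43, and without EGLN3 vector library 3 it was -0.15. HNRNPA0 has no overlapping gene in GENCODE 29.

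Across both families, none of the 33 tested genes passed an adjusted p under 0.05 in edgeR without covariate, where 0.00636% of all tested genes did, that is EGLN3 alone. At an unadjusted p under 0.05 there was 1 member, SRSF9, where the share over all genes was 1.11%. DESeq2 and limma-voom also called 0 members, and each gave SRSF9 alone an unadjusted p under 0.05, where the shares over all genes were 1.04% and 1.15%. The log2 fold change was negative in 21 members and positive in 12, and 29 lay within 0.15 of 0. The median was 0.0048 over the SRSF genes and -0.026 over the HNRNP genes, against 0.010 over all tested genes other than EGLN3. The SE of a member in this fit was 0.11 to 0.27 on the log2 scale.

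In CPM the groups stood apart in 2 of the 33 members, SRSF9 and SRSF8 (6.06%), where the share over all tested genes was 6.26%, with 3.62% lower like SRSF9 and 2.64% higher like SRSF8. SRSF8, a retrogene related to SRSF2, had 64.05, 64.6 and 65.1 CPM in EGLN3 vector libraries and 64.00, 60.4 and 60.1 CPM in empty vector libraries. Its log2 fold change was 0.07 (SE 0.11), and the gap between the nearest libraries was within the counting error of 946 to 1100 counts per library. HNRNPK was nearly level, with 617, 697 and 696 CPM in EGLN3 vector libraries and 669, 674 and 669 CPM in empty vector libraries.

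**Figure D2:**
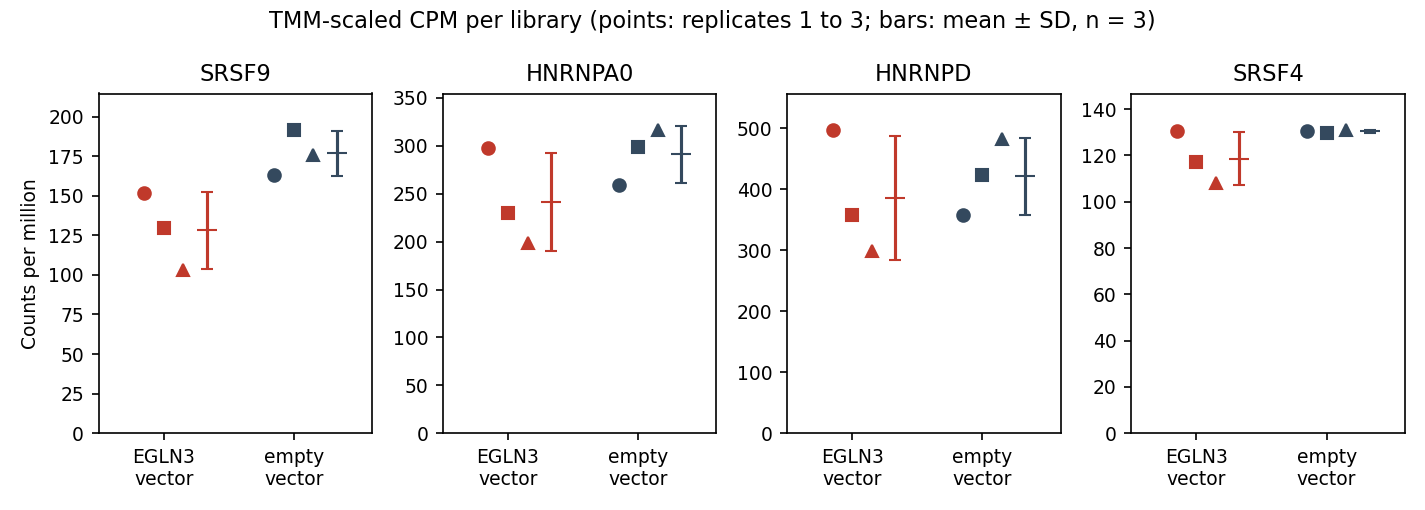
TMM-scaled CPM of SRSF9, HNRNPA0, HNRNPD and SRSF4 in each library, EGLN3 vector left of empty vector, with the mean ± SD of 3 libraries beside the points and an axis that starts at 0. SRSF9 is the gene of the 4 whose groups do not overlap, and in all 4 genes EGLN3 vector library 3 is the lowest point of the panel.

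Within each group some members were higher, and others lower, toward the positive end of the first component. The change of log2 CPM over the span of the component, with a term for the group, was positive in 63.6% of the SRSF genes, 63.6% of the HNRNP genes and 49.9% of the 15693 other tested genes. Its median was 0.09 over the SRSF genes, 0.19 over the HNRNP genes and -0.0015 over the others, whose middle 50% ran from -0.56 to 0.52. SRSF2 changed by 0.80, with 269, 174 and 162 CPM in EGLN3 vector libraries 1 to 3 and 137, 175 and 213 CPM in empty vector libraries 1 to 3. Its highest library of all and its lowest were the EGLN3 vector and the empty vector library that share the number 1, with scores of 59.4 and -36.2 on the component, 1.97-fold apart.

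HNRNPA1P48 (0.82), HNRNPD (0.68) and HNRNPM (0.65) had the highest changes along the component among HNRNP genes. HNRNPD, or AUF1, which promotes the decay of mRNAs with AU-rich elements, had 498, 359 and 299.6 CPM in EGLN3 vector libraries and 358, 424 and 483 CPM in empty vector libraries. HNRNPM, known for exon choice in the epithelial to mesenchymal change, had 499, 359.6 and 309 CPM in EGLN3 vector libraries and 364, 456 and 474 CPM in empty vector libraries. Both were high in EGLN3 vector library 1 and empty vector library 3 and low in EGLN3 vector library 3 and empty vector library 1.

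SRSF11 ran the other way with a change of -0.58. This SR-like protein, first known as p54, had 182, 247 and 283 CPM in EGLN3 vector libraries and 248, 210.1 and 197 CPM in empty vector libraries. HNRNPU, the scaffold attachment factor, changed by -0.41 and HNRNPH1, a binder of G-rich RNA, by -0.39, while SRSF10, a splicing repressor when dephosphorylated, changed by -0.19. SRSF6, SRSF8 and HNRNPF were nearly flat, at -0.07, -0.06 and -0.02. SRSF9 changed by 0.41, SRSF7 by 0.36 and HNRNPA0 by 0.52.

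Over the 33 members the change along the component had a Spearman rho of -0.43 with log2 gene length and 0.39 with GC content, and over 15686 other tested genes -0.45 and 0.35. These are descriptions over genes that share the same 6 libraries. In 13 members the component held over 90% of the variance within groups, 96.9% for HNRNPA0, against 70.3% for SRSF9. The share of all tested genes over 90% was not counted, so this is not read as a trait of the families. The highest library was 1.05-fold (SRSF6) to 1.97-fold (SRSF2) above the lowest, with a median of 1.26, and for 22 of the 33 members EGLN3 vector library 1 was the highest or the lowest.

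**Figure D3:**
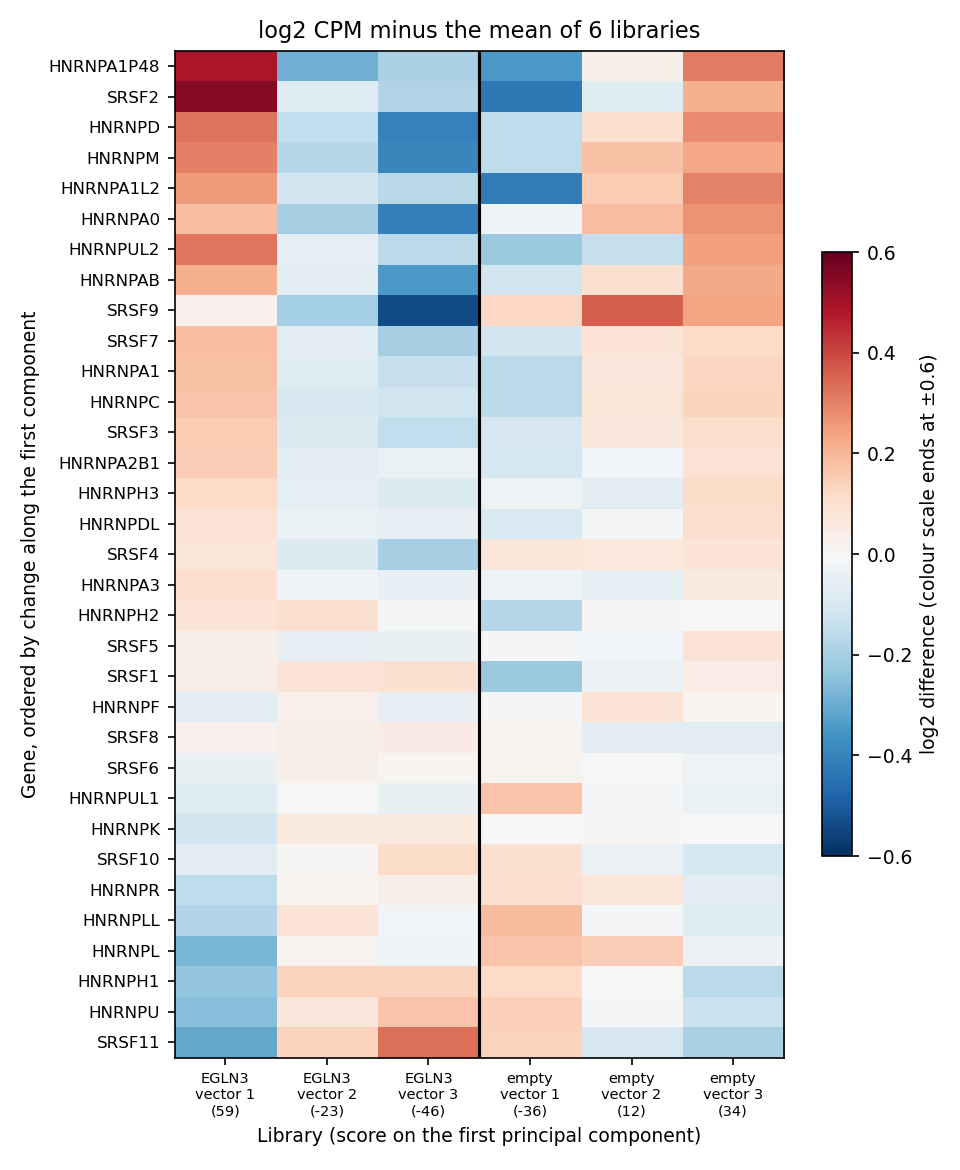
log2 CPM of each tested gene minus its mean over the 6 libraries, EGLN3 vector libraries left of the black line and empty vector libraries right of it, with each library's score on the first component below its name and genes ordered by their change along it. The upper rows are high in EGLN3 vector library 1 and empty vector library 3, the lower rows are low there, and the row of SRSF9 is lower left of the line than right of it.

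A corrected fit removed from each library its dependence on gene length and GC content, and added 1 surrogate variable estimated from all tested genes. In it 4 of the 33 members (12.1%) passed an adjusted p under 0.05, all lower with the EGLN3 vector, where 0.967% of all tested genes passed and 0.642% passed as lower. Members were expressed well above other genes, with a median of 188 CPM over SRSF genes and 343 CPM over HNRNP genes against 28.9 CPM over 12761 other tested protein-coding genes. The part of this in the share called was not tested. HNRNPA0 stood at a log2 fold change of -0.35 (SE 0.05), with an edgeR adjusted p of 0.000256. SRSF9 stood at -0.53 (SE 0.08), with an edgeR adjusted p of 0.0137. HNRNPD followed with -0.25 (SE 0.05, adjusted p 0.0121 in edgeR) and SRSF4 with -0.22 (SE 0.05, adjusted p 0.0364 in edgeR). The surrogate variable was estimated from the same 6 libraries with the group protected. These SE and p treat it as known, so they are likely too small. The common dispersion, the spread of counts beyond sampling, was 0.0022 in this fit and 0.059 without covariate. An unadjusted edgeR p under 0.05 was reached by 13.0% of all tested genes in this fit and 1.11% without covariate.

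For HNRNPA0 the corrected log2 values, as differences from the mean of 6 libraries, were -0.17, -0.09 and -0.27 in EGLN3 vector libraries and 0.19, 0.21 and 0.12 in empty vector libraries. Those of SRSF9 were -0.23, -0.14 and -0.43 in EGLN3 vector libraries and 0.32, 0.37 and 0.11 in empty vector libraries. After the correction the groups of both genes stood apart, with every EGLN3 vector library below 0. The surrogate variable takes out spread within groups while the group is protected, as in the fit that called these genes. The separation is therefore not a test apart from those calls. The length and GC trends were fitted in each library without regard to group, so they can also move the group difference. With the trends alone SRSF9 stood at -0.52 and HNRNPA0 at -0.32, against -0.46 and -0.27 without covariate. The groups stood apart on the corrected scale in 18 of the 33 members, 17 lower and SRSF2 higher with the EGLN3 vector. The shares over all tested genes were 24.8% in either direction and 13.1% lower.

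The HNRNPA0 call was kept with each of the 6 libraries left out in turn, at adjusted p from 2.03e-05 to 0.0118, and without the library labelled 5 days the log2 fold change was -0.30. The SRSF9 call was lost without empty vector library 1 (-0.51, adjusted p 0.0741) and without empty vector library 2 (-0.49, adjusted p 0.218). It was kept without EGLN3 vector library 3 (-0.43, adjusted p 0.000186). HNRNPD lost its call without EGLN3 vector library 1 (-0.25, adjusted p 0.15) and without EGLN3 vector library 3 (-0.18, adjusted p 0.307). SRSF4 lost it without any 1 of the EGLN3 vector libraries, at -0.27 (adjusted p 0.102) without library 1, -0.24 (adjusted p 0.0709) without library 2 and -0.16 (adjusted p 0.465) without library 3, and without empty vector library 1 (-0.18, adjusted p 0.141). All these p are from edgeR. The count of members called was 2 without EGLN3 vector library 1, EGLN3 vector library 3 or empty vector library 1, where 0.366%, 0.324% and 0.962% of all tested genes were called. It was 3 without EGLN3 vector library 2 (0.478% of all tested genes) or empty vector library 2 (1.11%), and 6 without empty vector library 3 (1.41%).

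SRSF4, the longest of the classical SR proteins, had 131, 117 and 108 CPM in EGLN3 vector libraries and 130.6, 129.7 and 131 CPM in empty vector libraries, so its difference lay in EGLN3 vector libraries 2 and 3. Its exact permutation p in CPM was 0.3, and that of HNRNPD 0.7. Without covariate SRSF4 stood at -0.14 (SE 0.12) and HNRNPD at -0.13 (SE 0.22), and without EGLN3 vector library 3 HNRNPD stood at 0.02. SRSF2 was higher by 0.18 in the corrected fit (SE 0.05, adjusted p 0.052 in edgeR), and HNRNPL, which binds CA repeats, was lower by 0.19 (log2 fold change -0.19, SE 0.05, adjusted p 0.0511 in edgeR). In a fit with the surrogate variable alone, both passed, at 0.24 (adjusted p 0.00765) and -0.20 (adjusted p 0.0227), while HNRNPD (-0.11, adjusted p 0.191) and SRSF4 (-0.13, adjusted p 0.166) did not. SRSF9 (-0.45, adjusted p 0.000515) and HNRNPA0 (-0.25, adjusted p 0.00352) passed in both fits. The fit with the surrogate variable alone called 4 members, 3 lower and 1 higher, and 4.69% of all tested genes, 3.59% lower and 1.09% higher.

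**Figure D4:**
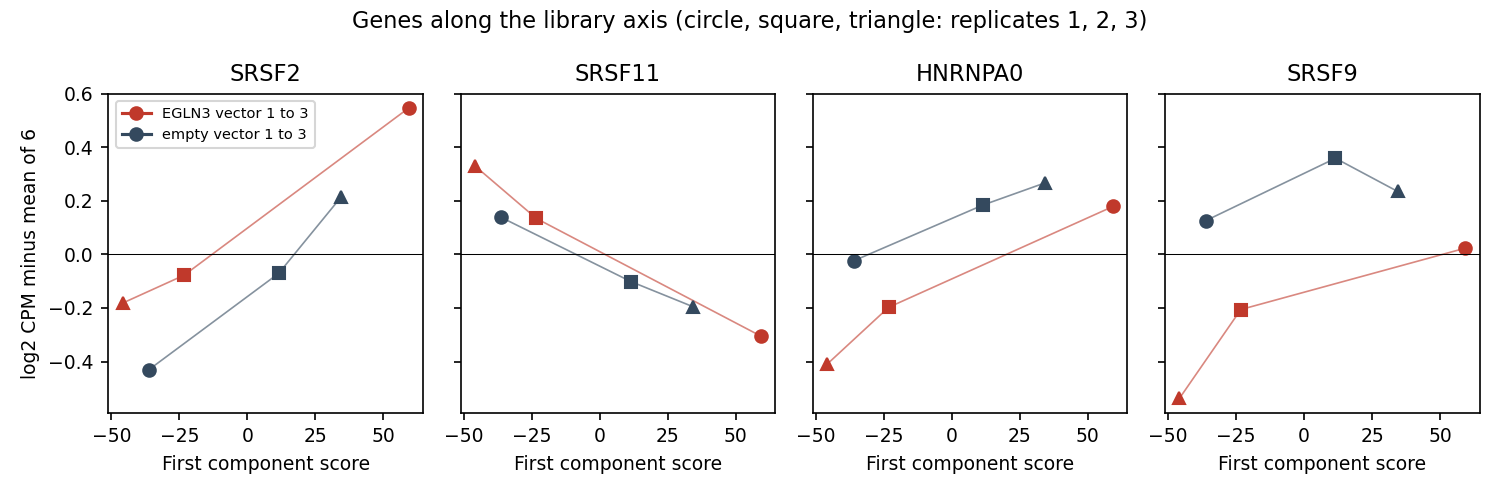
log2 CPM minus the mean of 6 libraries for SRSF2, SRSF11, HNRNPA0 and SRSF9 (vertical) against the score of each library on the first component (horizontal), EGLN3 vector in red and empty vector in dark blue, lines joining libraries of a group. SRSF2 climbs and SRSF11 drops along the component in both groups, and for HNRNPA0 and SRSF9 the red line runs below the blue line.

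In the corrected fit 28 of the 33 members had a negative log2 fold change and 5 a positive one, with a median of -0.084 over SRSF genes and -0.073 over HNRNP genes, against -0.0039 over all tested genes other than EGLN3, of which 8057 were negative and 7668 positive. The same 28 and 5 came from the GC and length trends without the surrogate variable, with a median of -0.08 over all 33 members and 0 members called, while the surrogate variable without the trends gave 19 negative and 14 positive and a median of -0.0082. More members were negative in the 2 fits with the trends taken out than in the 2 fits without, where 21 (no covariate) and 19 (surrogate variable alone) were negative. Tested SRSF genes had a median GC content of 40.7% and HNRNP genes of 42.6%, against 48.8% in other tested protein-coding genes.

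**Figure D5:**
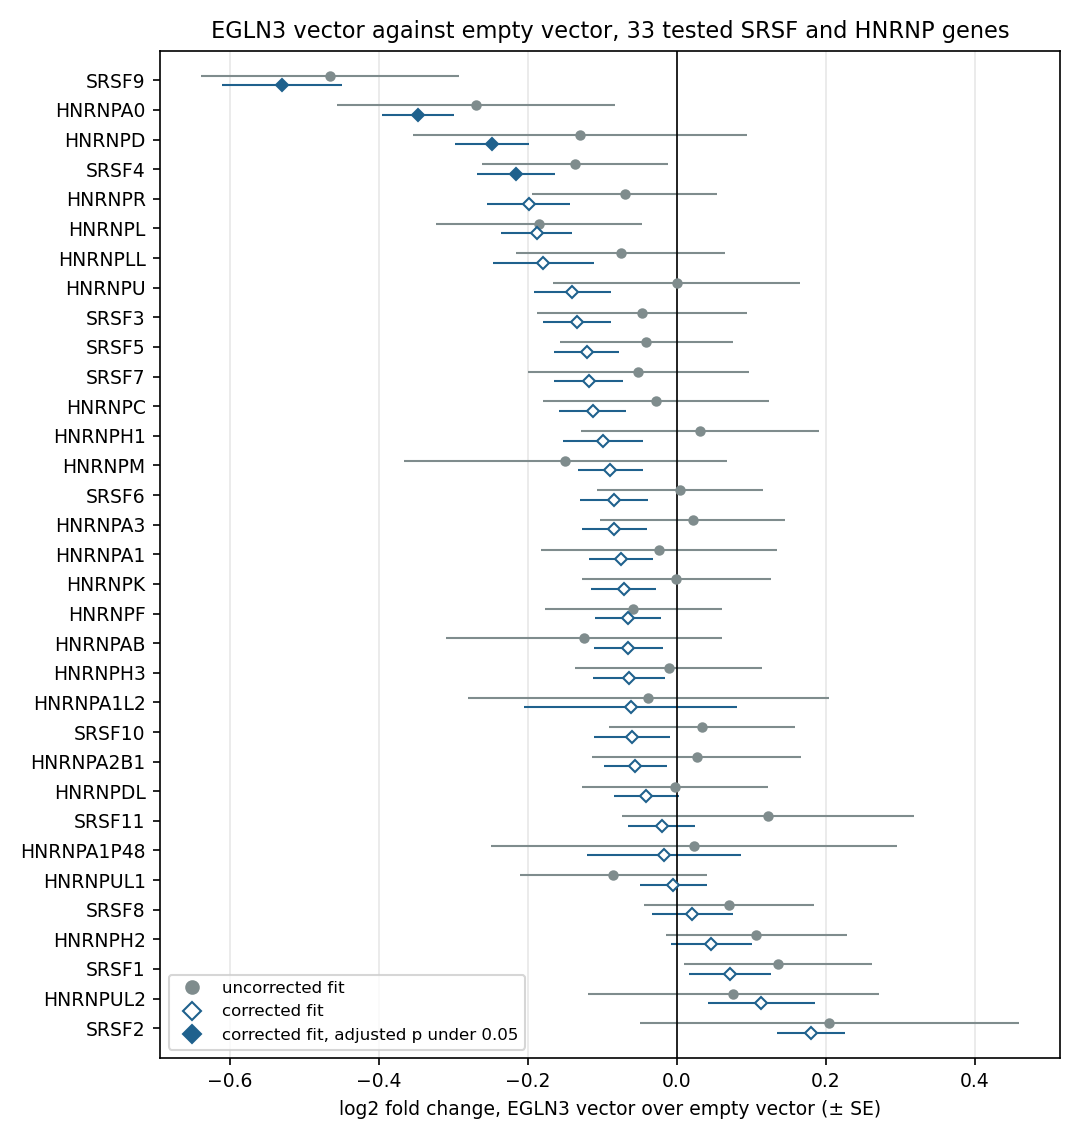
log2 fold change of EGLN3 vector over empty vector for the 33 tested genes, with bars of 1 SE, from the uncorrected fit (grey circles) and the corrected fit (blue diamonds, filled where the adjusted p was under 0.05). The filled diamonds are SRSF9, HNRNPA0, HNRNPD and SRSF4, and most open diamonds lie slightly left of 0 with bars shorter than the grey ones.

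By type of protein, the classical SR proteins (SRSF1 to SRSF7 and SRSF9) had log2 fold changes from -0.53 to 0.18 in the corrected fit, with 2 of 8 called. Besides SRSF9, SRSF4 and SRSF2, they lay between -0.13 (SRSF3) and 0.07 (SRSF1, the SR protein best known as an oncogene). SRSF8, SRSF10 and SRSF11 lay between -0.06 and 0.02 with 0 called. All 5 A/B genes (HNRNPA0, HNRNPA1, HNRNPA1L2, HNRNPA2B1 and HNRNPA3) were negative, with HNRNPA0 called and the other 4 between -0.08 and -0.06. Of these 5, 3 were negative without covariate and 2 with the surrogate variable alone, so the shared sign depended on the fit. Of the D type, HNRNPD was called, and HNRNPAB (-0.06) and HNRNPDL (-0.04) were not. The 4 F/H genes lay between -0.10 and 0.05, the U genes between -0.14 (HNRNPU) and 0.11 (HNRNPUL2), and HNRNPC, a binder of U-rich tracts, HNRNPK, HNRNPM and HNRNPR stood at -0.11, -0.07, -0.09 and -0.20, all uncalled. HNRNPLL, a relative of HNRNPL known from lymphocytes, was at -0.18 and also uncalled.

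Features of the annotation were not used to choose the genes, and differences in them were not tested. All 11 tested SRSF genes have a transcript classed as a target of nonsense-mediated decay in GENCODE 29, against 13 of 22 HNRNP genes (59.1%) and 42.8% of 12761 other tested protein-coding genes. A retained-intron transcript is listed for 8 SRSF genes (72.7%), 14 HNRNP genes (63.6%) and 57.7% of the others. HNRNPA0, with its single exon, has neither. Median gene length over exons was 4593 bases for SRSF, 5768.5 for HNRNP and 5086 for other genes. Pseudogene rows named after a member held few reads next to it, at most 2.57% of the member's counts (HNRNPC), with 1.01% over the 74 rows named after HNRNPA1.

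Genes that act with these factors showed 0 calls without covariate in edgeR, where no gene of these 5 lists had an unadjusted p under 0.05, and 0 calls in the corrected fit. The median log2 fold change of SR protein kinases and importers (11 tested) was 0.10 without covariate and -0.0030 in the corrected fit, where 2 had an unadjusted p under 0.05, and the share of all tested genes was 13.0%, which is also the background of the unadjusted counts below. SRPK1 and SRPK2, which phosphorylate SR proteins in the cytoplasm, had 0.20 (SE 0.20) and 0.18 (SE 0.23) without covariate, and CLK2, a nuclear SR kinase, 0.12 (SE 0.13). SR-related proteins (19 tested) had medians of 0.05 and 0.01, with 3 unadjusted in the corrected fit. U2AF1, which reads the 3′ splice site, had 9, 165 and 56 counts in EGLN3 vector libraries and 56, 18 and 12 in empty vector libraries (1.42, SE 0.95), and its reads are uncertain because GRCh38 holds a near-identical copy. U2AF2 (-0.13) and SCAF1 (-0.16) had smaller differences.

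Other regulators of splicing (29 tested of 30) had medians of 0.05 without covariate and 0.01 in the corrected fit, with 7 unadjusted there. The smallest p were those of PCBP1, a relative of HNRNPK that binds poly(C), at -0.25 (SE 0.13), KHSRP at -0.21 (SE 0.11) and PTBP2 at 0.23 (SE 0.13), without covariate. The spliceosome core (34 tested) had medians of -0.02 and -0.03, with 5 unadjusted in the corrected fit, and PRPF19 (-0.17), PRPF6 (-0.17) and SF3A2 (-0.22) had the smallest p without covariate. Genes of nonsense-mediated decay (10 tested) had medians of 0.04 and 0.03, with 3 unadjusted in the corrected fit. There SMG9 (-0.17) and UPF2 (0.15) were among the genes with the smallest p without covariate. With the surrogate variable alone, 6 genes of these lists passed in edgeR, 4 lower (SNRNP70, PCBP1, KHSRP and DHX38) and 2 higher (PCBP2 and MBNL1), in a fit that called 4.69% of all tested genes.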

How the data were processed

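The authors deposited whole-number gene counts per library, with no scaling, and FPKM values. Per the submitters' processing notes, HISAT2 2.0.5, featureCounts 1.5.0-p3, DESeq2 1.20.0 and the build hg38 were used, with no role given. The sources used here name neither annotation nor strand setting, and the deposited starts, ends and lengths of all 58735 genes matched GENCODE 29. Each deposited FPKM is the count over gene length with 1 scaling constant for its library, and FPKM served for levels between genes. The genes and lists were chosen with earlier results of these data known.

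Counts were analysed in R 4.3.3 with edgeR 4.0.16: filterByExpr, TMM, robust quasi-likelihood test without covariate, Benjamini-Hochberg adjustment over all 15726 tested genes and a call at an adjusted p under 0.05. An SE is the log2 fold change divided by the root of F. CPM carry TMM factors of 0.919 to 1.06. The corrected fit adds spline trends (5 degrees of freedom) on GC content and log2 gene length as offsets and 1 surrogate variable (sva 3.50.0), with 3 residual degrees of freedom against 4. GC content came from the longest GENCODE transcript, for 99.96% of tested genes. Alternatives were DESeq2 1.42.0, limma-voom (limma 3.58.1), RLE and upper-quartile scaling, other filters, protein-coding genes alone, log2(FPKM + 1) and log2(FPKM + 0.1) in limma, a replicate block, and leaving out each library. The corrected fit with limma, and with a surrogate variable estimated without the SRSF and HNRNP genes, were chosen after seeing the data. The fits were also run on simulated counts, with and without a library axis built from the surrogate variable. Such an axis favours fits with that variable, and no outcome of these runs is given.

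Named genes were EGLN3, SRSF9 and HNRNPA0; members called in the uncorrected or corrected fit or with groups apart in CPM; the 4 highest and 2 lowest per family by FPKM; the 3 highest and 2 lowest per family by change along the first component; and per other list the calls, or else up to 3 genes with the smallest unadjusted p. A gene that this rule named is not reported here. Other members were named by type of protein after their values were seen, as were the calls of the surrogate variable fit. Libraries of a group differed by 8.07 to 104 in chi-square per degree of freedom, so none agreed within sampling noise. Counting error covers reads, which carry no molecular identifiers.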

Additional observations from a re-analysis of the deposited data

How the results depend on the processing

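The count of all genes called was 1 without covariate, and 0 with limma-voom, with log2(FPKM + 1) in limma with or without a filter, and with the replicate block. It was 152 in the corrected fit, also with limma and with the surrogate variable estimated without SRSF and HNRNP genes, 737 with 1 surrogate variable alone and 739 with that estimated without these genes. Leaving out 1 library gave 0 to 1 calls without covariate and 52 to 227 in the corrected fit. Members called were 0 without covariate and 4 in each of the 5 fits with a surrogate variable on all libraries, and 2 to 6 in the corrected fit with 1 library left out. The median of the SRSF genes was 0.0048 without covariate, -0.084 in the corrected fit, in its limma form and in that without these genes in the surrogate variable, -0.086 with the 2 trends alone, and -0.11 to -0.057 in the corrected fit with 1 library left out, against -0.043 to 0.023 without covariate. The cause of these differences was not tested.

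SRSF9 and HNRNPA0 were negative in 29 of 29 alternatives, from -0.63 to -0.33 and from -0.43 to -0.15, and were called in 9 and 11 of them, each with a surrogate variable. No called direction reversed, 8 of 33 members kept their sign throughout, and 26 were called in no fit. No alternative moved the median of all genes by more than 0.02. Same-numbered libraries had correlations of -0.79, -0.18 and -0.67 in their deviations. With 70.0% of the variance on the first component, these values cannot show whether same-numbered libraries were handled together. The replicate block gave -0.48 for SRSF9 and -0.29 for HNRNPA0, with 0 members called. With 3 libraries a group, differences of the size of the SE are not detectable, and gene counts hold no isoforms.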
